A study of Mus musculus with 8 samples.

Results

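The mitochondrial ribosomal protein genes of mouse tibialis anterior, a fast muscle of the lower hind limb, were compared between mice given Porphyromonas gingivalis by mouth and control mice. Members were all genes on the array whose name begins with Mrpl or Mrps and a digit, which gave 77 genes of the 16004 named genes tested, 48 named for the large subunit and 29 for the small subunit. They were covered by 119 probes, of which 109 were tested. All 77 genes had a tested probe, and the probe used for each gene was well above background on each of the 8 arrays.

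Per the labels, both groups were male C57BL/6J mice aged 14 weeks. The P. gingivalis group (4 arrays) had received the bacterium, an anaerobe of the periodontal pocket, suspended in 100 µL of saline through a feeding needle over 6 weeks from the age of 8 weeks. The second group (4 arrays) is labelled control. The protocol states a high-fat diet without a distinction between groups, but it also uses names of groups that occur in no sample title, so the diet of each group here is uncertain. The sources used here do not say what the controls received, how many bacteria were given or whether each sample was 1 mouse. If samples shared a mouse, the p-values measure only the spread between samples. The muscle was analysed whole, so fewer cells of a type and less RNA per cell cannot be told apart.

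A conflict in the labels bears on every direction given here. The authors also deposited a table of processed values, and each of its 8 columns followed 1 scanner file closely (correlations of 0.833 to 0.88 over centred probes, next best at most 0.0784). Only 4 of these columns followed an array of their own group, namely control 1, control 2, P. gingivalis 3 and P. gingivalis 4 as the scanner files label them. Group membership here follows the scanner files. By these labels all P. gingivalis arrays sat in one row of the slide and all control arrays in the other. Row and group therefore cannot be told apart under the scanner files' groups. The value table's columns, taken in order, followed arrays that alternated between the rows, so each of its groups holds arrays of both rows. The scanner files' labels thus run along the rows of the slide and the value table's labels along its columns. Why the orders differ was not tested. Before scaling, the 75th percentile of the signal ran from 238.4 to 255.5 on the P. gingivalis arrays and from 275 to 305.8 on the control arrays (p = 0.0286 in a two-sided exact permutation test, the smallest that 70 assignments allow).

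All 8 fast-fibre genes were well above background on all 8 arrays. The listed endothelial, macrophage, fibroblast and adipocyte markers were so too, and detection alone therefore does not identify the tissue. On the linear scale, relative to the 75th percentile, the fast-fibre genes summed to 5432 to 5709 on the P. gingivalis arrays and 4888 to 5425 on the control arrays. Summed levels of 4 fibroblast markers were 20.18 to 28.81 on the P. gingivalis arrays against 9.325 to 18.01 on the control arrays. The log2 differences were 1.01 for Col1a1 and 0.65 for Lum, both without overlap between groups. Dpt at 0.36 and Pdgfra at 0.21 overlapped. The 4 macrophage markers summed to 7.581 to 10.17 on the P. gingivalis arrays and to 5.95 to 7.544 on the control arrays. That sum is carried by its brightest gene, Csf1r, with a log2 difference of 0.35 and no overlap between groups. The other macrophage markers overlapped, with Cd68 at 0.17, Mrc1 at 0.18 and Adgre1 at -0.035. The 4 neutrophil markers summed to 0.4427 to 0.6045 on the P. gingivalis arrays and to 0.5862 to 3.515 on the control arrays. Here S100a8 (-3.42) and S100a9 (-2.93) differed most, against -0.10 for Ly6g and -0.036 for Camp, and all of them overlapped between groups. S100a8 was well above background on only 2 of the 4 P. gingivalis arrays and on all 4 control arrays, so the size of its difference is uncertain. The part of these cell types in any value below was not tested. The satellite cell gene Myf5 was the 1 listed marker not well above background on any array.

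Mitochondria keep a ribosome of their own, which translates the few mRNAs encoded by mitochondrial DNA into subunits of the respiratory chain and ATP synthase. Its RNAs come from mitochondrial DNA, but all of its proteins are encoded in the nucleus, made in the cytosol and imported. The large subunit forms peptide bonds, and the small subunit binds the mRNA and holds the decoding centre. Many of these proteins descend from bacterial ribosomal proteins and others occur only in mitochondria. Many of the genes carry promoter sites for NRF1, the ETS factor GABP and YY1, transcription factors known for control of nuclear genes of mitochondria.

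Promoters of Mrpl34 and Mrpl3, the members with the lowest differences, and of Mrpl12 and Mrpl45, which have an NRF1 match, are shown first because these factors were themselves measured on the arrays. The sequence upstream of Mrps11, at the other end of the comparison, follows further down. The sequences come from RefSeq (mouse assembly GRCm38.p6), run 5′ to 3′ on the gene's strand, and capitals mark the match.
Mrpl34, chr8:71464846-71464925, + strand: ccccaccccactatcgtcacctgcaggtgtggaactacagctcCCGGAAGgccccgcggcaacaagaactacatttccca
Mrpl3, chr9:105053188-105053267, + strand: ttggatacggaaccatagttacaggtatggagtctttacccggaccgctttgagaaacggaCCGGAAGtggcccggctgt
Mrpl12, chr11:120484557-120484636, + strand: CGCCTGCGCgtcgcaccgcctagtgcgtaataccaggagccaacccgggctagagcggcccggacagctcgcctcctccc
Mrpl45, chr11:97315636-97315715, + strand: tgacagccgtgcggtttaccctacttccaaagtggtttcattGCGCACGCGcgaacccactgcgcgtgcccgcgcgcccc
The ETS match began 37 bases before the annotated start in Mrpl34 and 19 bases before it in Mrpl3. The NRF1 match began 80 bases before the start in Mrpl12 and 38 bases before it in Mrpl45. In Mrpl12 it reads in the searched letters on the opposite strand.

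Over windows of 250 bases before to 50 bases after the start, 68 of the 77 members had a sequence, and a gene with several annotated starts was counted where any of its windows matched. The letters searched on both strands were GCGCANGCG for NRF1, CCGGAAG for ETS factors and AAGATGGCG for YY1. An ETS match can run into a YY1 match, since the letters AAG end the first and begin the second. The NRF1 letters occurred in 16 of the 68 member promoters (23.5%), against 7.03% of all 27025 genes' promoters and 13.3% of those of 11614 tested coding genes. For the ETS letters the numbers were 25 members (36.8%), against 9.93% of all promoters and 17.5% of those of tested coding genes. YY1 letters were present in 8 members (11.8%), against 1.64% of all promoters and 3.1% of those of tested coding genes. Any of the 3 was found in 41 members (60.3%), against 16.5% of all promoters and 29.7% of those of tested coding genes. These shares describe letters in the windows and not binding. Of the members with ETS letters, 9 had a higher mean in the P. gingivalis arrays, Mrpl48 and Mrps18c among them, and 16 a lower mean. Of those with YY1 letters, 3 were higher, Mrps11 and Mrpl36 among them, and 5 lower. With NRF1 letters 6 were higher and 10 lower. All 77 members split into 33 higher and 44 lower.

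No mitochondrial ribosomal protein gene passed the test for a difference between P. gingivalis and control muscle. In the limma fit the lowest adjusted p among the 77 was 0.3674 and the highest 0.9997, and over the whole array 0% of 31649 probes passed the adjusted threshold of 0.05. At an unadjusted p under 0.05, 11.2% of all tested probes and 10.7% of all genes were counted. Of the members 2 were counted (2.6%), Mrps11 with the higher mean in P. gingivalis arrays and Mrpl34 with the lower. The share for all genes was 4.87% higher and 5.83% lower. In the probe used for each gene, values of the groups did not overlap in 3 members (3.9%), against 7.07% of all genes. Of these Mrpl48 was higher, against 3.25% of all genes, and Mrpl34 and Mrps12 were lower, against 3.82%.

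The members varied less from array to array than genes at large, as did nuclear-encoded respiratory chain subunits and cytosolic ribosomal proteins. These lists were not matched to genes at large for brightness, and the part of brightness in the comparisons of this paragraph was not tested. Member probes were brighter than most, since 51 of the 109 tested ones had a log2 signal over 4, against 2991 of all 31649 tested probes. The 95% confidence interval of the ratio of P. gingivalis over control lay between 0.778-fold and 1.311-fold for each of the 77 members, so each interval stayed within a 1.5-fold difference either way. The same held for 83.3% of all tested genes. Differences ran from -0.21 for Mrpl34 to 0.20 for Mrps11 on the log2 scale, and 85.7% of the members, against 54% of all genes, differed by less than 0.1. The median SE of the difference was 0.066 for the members and 0.091 for all genes. Within groups, the median SD of log2 signal was 0.072 for the members and 0.127 for all genes, and each of the 77 members lay below that of all genes. The same median SD was 0.071 for 81 subunits of oxidative phosphorylation and 0.067 for 81 cytosolic ribosomal proteins, of which 85.2% of the subunits and 80.2% of the ribosomal proteins differed by less than 0.1. A p that misses the threshold does not show that the groups are alike, and these intervals give the sizes that remain possible under the scanner files' groups.

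**Figure D1:**
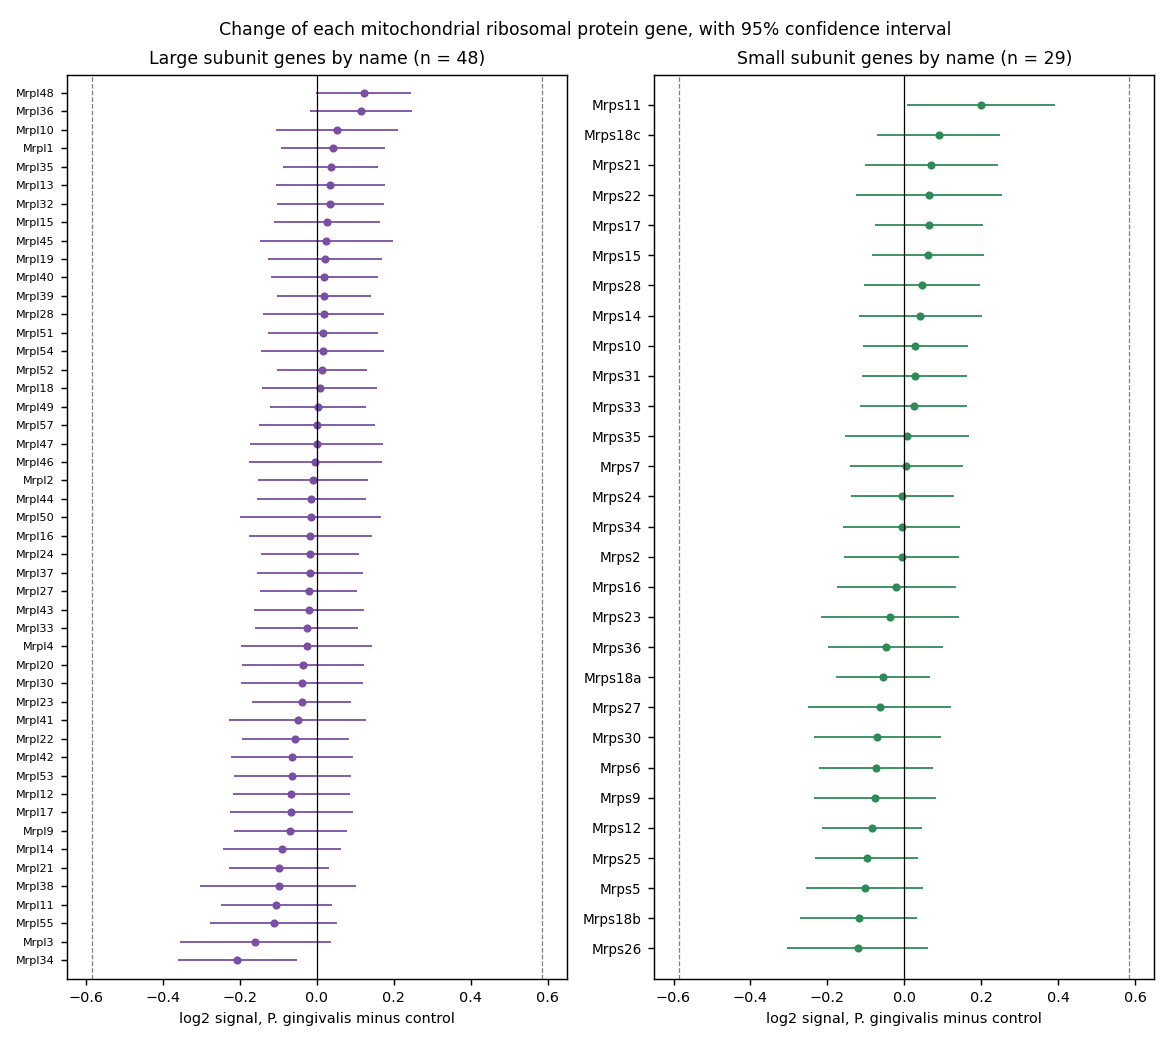
Difference in log2 signal, P. gingivalis minus control, for the 48 large subunit and 29 small subunit genes by name, with 95% confidence intervals from limma (4 arrays per group). Dashed lines mark a 1.5-fold difference, and all 77 intervals lie inside them.

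Signals below are log2 processed intensities relative to the 75th percentile of each array, so 1 unit is a 2-fold difference in intensity, and arrays are given in replicate order. Probe positions are those of the file headers' build, mm9. The values of different genes come from different probes and are not set against each other.

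Among large subunit genes the lowest unadjusted p belonged to Mrpl34, the homologue of bacterial protein L34. Its probe at chr8:73989526-73989585 gave 4.22, 4.36, 4.44 and 4.38 in the P. gingivalis arrays, against 4.55, 4.55, 4.50 and 4.64 in the control arrays. Every P. gingivalis value lay below every control value. The difference was -0.21 ± 0.068 (SE, n = 4 each), or 0.866-fold with a 95% interval of 0.778 to 0.965, at a limma unadjusted p of 0.01503 and an adjusted p of 0.3674. With the groups that the authors' value table assigns to the same arrays the difference was 0.071. On the 4 arrays for which both sources give the same group it was -0.14.

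Mrpl48, a protein of the central protuberance at the top of the large subunit, was the 1 member whose P. gingivalis values all lay above the control values in the probe used. They were 5.41, 5.42, 5.45 and 5.51 in the P. gingivalis arrays and 5.30, 5.30, 5.33 and 5.37 in the control arrays, a difference of 0.12 ± 0.054 (SE, n = 4 each; limma adjusted p = 0.4524). A second bright probe of Mrpl48 on the same strand (chr7:107697765-107697824, the first at chr7:107697637-107697696) did not show this order. It gave 4.63, 4.57, 4.54 and 4.63 in the P. gingivalis arrays against 4.67, 4.65, 4.65 and 4.60 in the control arrays.

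Mrpl36, the homologue of bacterial L36, gave 4.59, 4.58, 4.57 and 4.53 in the P. gingivalis arrays and 4.44, 4.54, 4.39 and 4.44 in the control arrays. The groups overlapped only through control 2 and P. gingivalis 4. The difference was 0.12 ± 0.058 (SE, n = 4 each; limma adjusted p = 0.4911).

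Mrpl3, whose bacterial homologue L3 reaches towards the peptidyl transferase centre, gave 3.99, 3.82, 3.78 and 3.62 in the P. gingivalis arrays and 4.06, 3.94, 3.91 and 3.94 in the control arrays. P. gingivalis 1 lay inside the control range and the other 3 below it. The difference was -0.16 ± 0.086 (SE, n = 4 each; limma adjusted p = 0.5116), with an SD of 0.151 among P. gingivalis arrays and 0.067 among control arrays. On the 4 arrays of agreed group it was -0.30, and with the value table's groups -0.14.

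Of the other large subunit genes with low p, Mrpl21, the L21 homologue, averaged 4.50 ± 0.048 in P. gingivalis and 4.60 ± 0.042 in control arrays (SD, n = 4 each). Mrpl55 averaged 6.05 ± 0.032 in P. gingivalis and 6.16 ± 0.12 in control arrays (SD, n = 4 each). In both, P. gingivalis and control values overlapped, through P. gingivalis 3 in each case. The adjusted p from limma was 0.5403 for Mrpl21 and 0.5785 for Mrpl55.

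**Figure D2:**
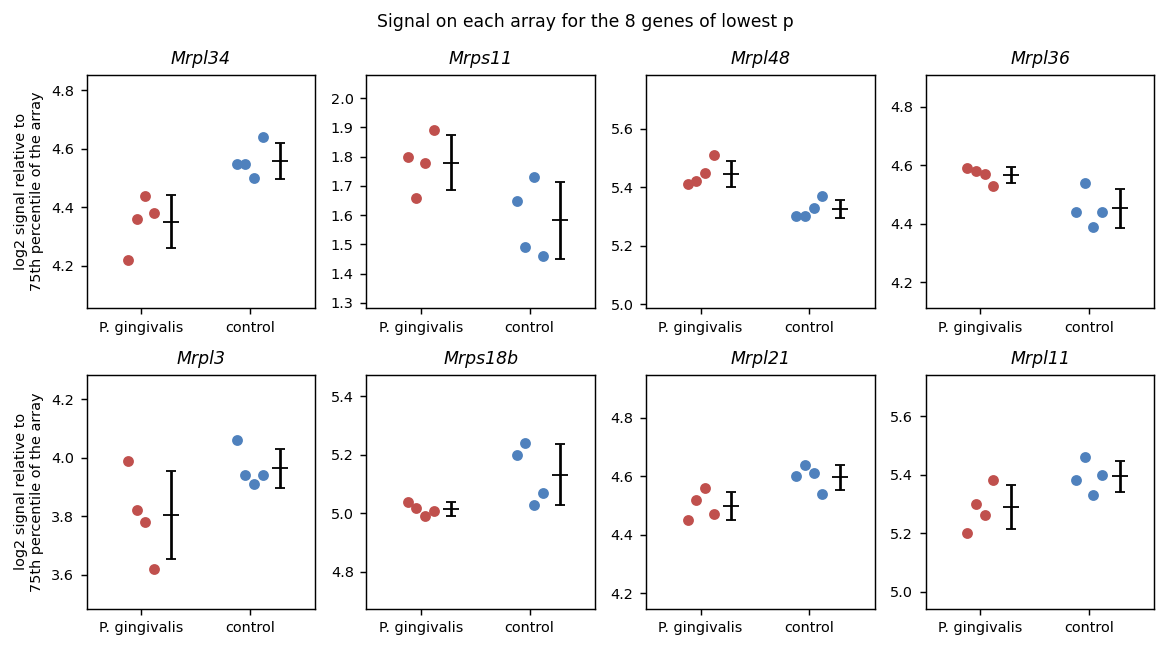
Log2 signal relative to the 75th percentile on each array for the 8 members of lowest unadjusted p, with each group's mean and SD beside its 4 points, P. gingivalis left and control right. Groups are apart in Mrpl34 and Mrpl48 and overlap in the other 6.

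The stalk of the large subunit, which recruits translation factors, consists of Mrpl10, Mrpl11 at its base and several copies of Mrpl12. Mrpl11 gave 5.20, 5.30, 5.26 and 5.38 in the P. gingivalis arrays and 5.38, 5.46, 5.33 and 5.40 in the control arrays, a difference of -0.11 ± 0.063 (SE, n = 4 each; limma adjusted p = 0.5537). Mrpl12 gave 5.48, 5.34, 5.48 and 5.46 in the P. gingivalis arrays and 5.62, 5.45, 5.53 and 5.43 in the control arrays, a difference of -0.067. Mrpl10 gave 1.99, 2.04, 2.04 and 2.06 in the P. gingivalis arrays and 1.89, 2.08, 2.06 and 1.87 in the control arrays, a difference of 0.052. The stalk genes thus had differences of both signs, each with overlapping groups.

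The 8 proteins that line the exit of the peptide tunnel had differences between -0.067 (Mrpl17) and 0.024 (Mrpl45), with a median of -0.017. Mrpl45, which sits at the tunnel exit on the membrane side, gave 4.60, 4.39, 4.40 and 4.42 in the P. gingivalis arrays and 4.43, 4.30, 4.46 and 4.52 in the control arrays. P. gingivalis 1 stood apart from the other 3 of its group, and without it the difference was -0.025. The 6 proteins of the central protuberance ran from -0.10 (Mrpl38) to 0.12 (Mrpl48), with a median of 0.001.

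Among the small subunit genes Mrps11, the homologue of bacterial S11 on the platform of the subunit, had the lowest p. Its probe spans an exon junction (chr7:85933622-85935544, + strand, mm9, 60 bases over 1923 bases of genome) and reads as follows, 5′ to 3′, shown since this value rests on it alone.
Mrps11: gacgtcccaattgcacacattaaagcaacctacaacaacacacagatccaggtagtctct
It gave 1.80, 1.66, 1.78 and 1.89 in the P. gingivalis arrays and 1.65, 1.49, 1.73 and 1.46 in the control arrays. P. gingivalis 2 lay below control 3, and the groups overlapped there. The difference was 0.20 ± 0.084 (SE, n = 4 each), or 1.147-fold with a 95% interval of 1.004 to 1.311, at a limma unadjusted p of 0.04531 and an adjusted p of 0.4407. The difference was 0.26 on the 4 arrays of agreed group and 0.063 with the value table's groups.

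Mrps11 and Mrpl46, a protein of the central protuberance, are the 1 pair of members whose starts lie head to head. The 41 bases between both starts (chr7:78783090-78783130, GRCm38.p6, + strand, RefSeq) are shown because both genes share them as upstream sequence.
Between Mrpl46 and Mrps11: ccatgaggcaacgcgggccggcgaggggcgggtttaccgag
Mrpl46 was measured by a probe that also spans an exon junction (chr7:85925493-85926340, - strand, mm9).
Mrpl46: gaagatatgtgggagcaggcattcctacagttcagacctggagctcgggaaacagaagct
It gave 2.34, 2.21, 2.19 and 2.23 in the P. gingivalis arrays and 2.28, 2.19, 2.39 and 2.13 in the control arrays. The difference was -0.005 ± 0.076 (SE, n = 4 each; limma adjusted p = 0.9889), and the P. gingivalis values lay wholly inside the control range. The difference between the 2 genes' changes was not tested.

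Bacterial protein S18 has 3 paralogs in the mitochondrion, Mrps18a, Mrps18b and Mrps18c, of which the product of Mrps18a sits in the large subunit. Mrps18a gave 4.47, 4.42, 4.42 and 4.45 in the P. gingivalis arrays and 4.55, 4.47, 4.49 and 4.46 in the control arrays, a difference of -0.056 ± 0.053 (SE, n = 4 each). Mrps18b gave 5.04, 5.02, 4.99 and 5.01 in the P. gingivalis arrays and 5.20, 5.24, 5.03 and 5.07 in the control arrays, a difference of -0.12 ± 0.067 (SE, n = 4 each). Mrps18c gave 4.37, 4.41, 4.28 and 4.45 in the P. gingivalis arrays and 4.39, 4.18, 4.25 and 4.32 in the control arrays, a difference of 0.089 ± 0.070 (SE, n = 4 each). All 3 overlapped between groups, and the limma adjusted p was 0.7091 for Mrps18a, 0.533 for Mrps18b and 0.6536 for Mrps18c. A second probe of Mrps18c, which overlaps the first in position, gave -0.069, so the sign for this paralog depended on the probe.

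Mrps12, the homologue of S12 in the decoding centre, was the third member without overlap, though narrowly. It gave 4.87, 4.90, 4.95 and 4.92 in the P. gingivalis arrays and 4.96, 5.08, 4.99 and 4.96 in the control arrays, a difference of -0.085 ± 0.057 (SE, n = 4 each; limma adjusted p = 0.5934). With the value table's groups the difference was 0.00035.

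Of the 8 members of lowest p with a higher mean in the P. gingivalis arrays, 4 more were small subunit genes, with unadjusted p from 0.3218 to 0.4629 in limma. These were Mrps17 with 4.02 ± 0.053 in P. gingivalis and 3.96 ± 0.066 in control arrays, and Mrps15 with 5.45 ± 0.061 in P. gingivalis and 5.39 ± 0.072 in control arrays (SD, n = 4 each). Mrps21 had 6.53 ± 0.11 in P. gingivalis and 6.46 ± 0.069 in control arrays, and Mrps22 had 2.52 ± 0.11 in P. gingivalis and 2.45 ± 0.11 in control arrays (SD, n = 4 each). Mrps17, Mrps15 and Mrps21 are homologues of bacterial proteins, whereas Mrps22 has no bacterial homologue. Of the 8 of lowest p with a lower mean, Mrps25, which is also without one, averaged 3.57 ± 0.039 in P. gingivalis and 3.67 ± 0.061 in control arrays (SD, n = 4 each). Mrps5, the S5 homologue at the mRNA entrance, averaged 2.17 ± 0.053 in P. gingivalis and 2.27 ± 0.089 in control arrays (SD, n = 4 each). In the probe used for each, these 6 genes overlapped between groups, with adjusted p from 0.5539 to 0.7953 in limma.

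Besides Mrps18a, another 2 members are misnamed by subunit. The product of Mrps30 sits in the large subunit, and that of Mrps36 is now known as a component of the 2-oxoglutarate dehydrogenase complex. Mrps30 averaged 3.23 ± 0.041 in P. gingivalis and 3.30 ± 0.12 in control arrays, and Mrps36 averaged 5.19 ± 0.056 in P. gingivalis and 5.24 ± 0.085 in control arrays (SD, n = 4 each). The differences were -0.070 and -0.048, with overlapping groups. In the probe used for each, the other 54 members had differences between -0.12 (Mrps26) and 0.046 (Mrps28), none with an unadjusted p below 0.1684 in limma.

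By subunit the differences were near 0 on both sides. Of the 48 large subunit genes 20 had a higher and 28 a lower mean in the P. gingivalis arrays, with a median difference of -0.016. The 29 small subunit genes split into 13 higher and 16 lower, with a median of -0.006. All 16004 genes split into 7318 higher and 8686 lower, with a median of -0.014. When Mrps30 and Mrps18a were counted with the large subunit and Mrps36 was left out, the medians were -0.018 for 50 large and 0 for 26 small subunit genes. A list of 46 members with a bacterial counterpart, which holds Mrps18c but not its paralogs Mrps18a and Mrps18b, had a median of -0.013. The 30 members outside it, with Mrps36 left out, had a median of -0.011.

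The members were next averaged on each array. After each gene was centred on its own mean, the average log2 signal of the 77 genes was -0.002, -0.032, -0.020 and 0.021 in the P. gingivalis arrays, against 0.041, 0.017, -0.013 and -0.011 in the control arrays. Control 1 was the highest array and P. gingivalis 2 the lowest, and the groups overlapped. The same arrays were lowest and highest for oxidative phosphorylation subunits (-0.067 on P. gingivalis 2 and 0.072 on control 1) and for cytosolic ribosomal proteins (-0.060 on P. gingivalis 2 and 0.073 on control 1). Control 1 alone held the highest value of 21 members, P. gingivalis 4 of 16 and control 2 of 15, against 2 each in P. gingivalis 2 and P. gingivalis 3. The large subunit mean less the small subunit mean was -0.007, 0.010, -0.017 and -0.011 in the P. gingivalis arrays and -0.008, 0.005, 0.010 and 0.018 in the control arrays. On each array both subunits therefore kept within 0.018 of each other on the log2 scale.

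**Figure D3:**
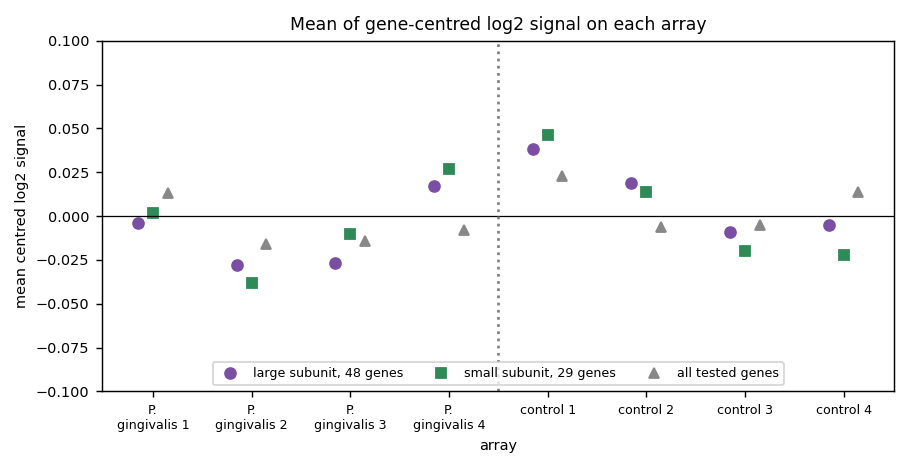
Mean over genes of the gene-centred log2 signal on each array for large subunit genes, small subunit genes and all tested genes, P. gingivalis arrays left and control arrays right of the dotted line. Both subunits follow each other from array to array, at -0.028 (large) and -0.038 (small) on P. gingivalis 2 and at 0.038 (large) and 0.046 (small) on control 1, and the groups overlap.

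The probes of a gene did not always agree in sign. Of the 26 members with more than 1 tested probe, 14 had differences of both signs. Those were Mrpl9, Mrpl13, Mrpl15, Mrpl27, Mrpl38, Mrpl44, Mrpl48, Mrps15, Mrps18b, Mrps18c, Mrps22, Mrps23, Mrps31 and Mrps33. The largest gap was in Mrps31, a small subunit protein without bacterial homologue. Its main probe, matched to the RefSeq transcript, spans an exon junction (chr8:23538340-23539688, + strand, mm9) and is printed because the second probe departs from it.
Mrps31: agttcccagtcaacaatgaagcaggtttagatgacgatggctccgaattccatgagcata
It gave 3.87, 3.71, 3.73 and 3.76 in the P. gingivalis arrays and 3.75, 3.78, 3.74 and 3.71 in the control arrays, a difference of 0.027. The second probe (chr8:23536607-23536666, mm9), which is named by gene symbol and matched no RefSeq transcript, gave -3.85, -4.15, -4.41 and -4.22 in the P. gingivalis arrays and -3.44, -3.77, -3.32 and -3.73 in the control arrays. Those groups did not overlap, and the difference was -0.59 ± 0.15 (SE, n = 4 each; limma adjusted p = 0.323).

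Mrps18a had a probe of the same kind, with -3.81, -3.92, -3.34 and -3.65 in the P. gingivalis arrays against -3.48, -3.21, -3.18 and -3.32 in the control arrays. The difference was -0.38 ± 0.13 (SE, n = 4 each; limma adjusted p = 0.3751), against -0.056 for the probe matched to the transcript, and the groups overlapped. Symbol-only probes of Mrps15 and Mrpl13 gave -0.21 each, against 0.061 and 0.035 for the matched probes of Mrps15 and Mrpl13. In Mrps23 the difference came from a second matched probe, with 0.17 ± 0.063 (SE, n = 4 each; limma adjusted p = 0.4015) against -0.037 for the main probe. Groups of this second probe did not overlap, narrowly, with a lowest P. gingivalis value of 2.174 and a highest control value of 2.171. Second matched probes of Mrps5 (-0.097) and Mrps9 (-0.13) were also without overlap, both lower in the P. gingivalis arrays. The share of all probes without overlap was not computed. Of the 119 probes, 99 were matched by accession and all of these were tested. Of the 20 named by symbol alone 10 were tested, and 8 were well above background on no array. Over all tested probes the median difference was -0.039 among probes with a log2 signal under -4 and -0.009 among those over 4.

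**Figure D4:**
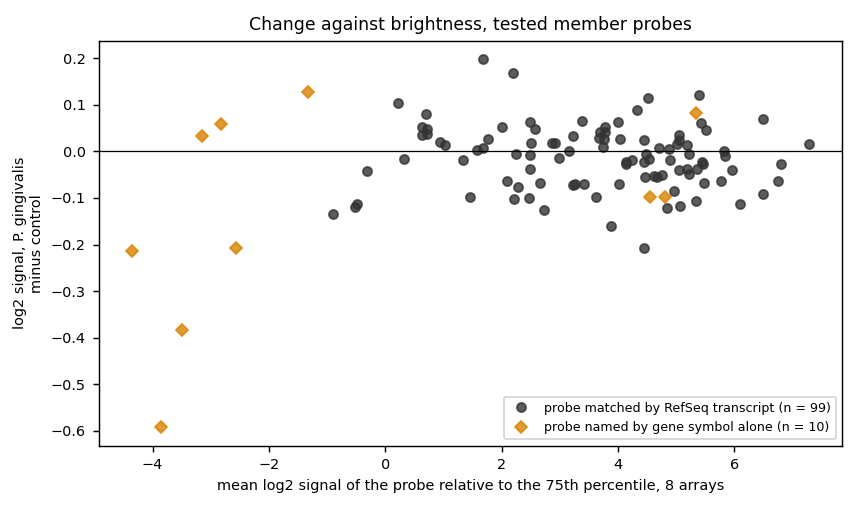
Difference in log2 signal, P. gingivalis minus control, against the mean log2 signal over 8 arrays for the 109 tested member probes. The 99 probes matched to a RefSeq transcript stay between about -0.21 and 0.20, and the far lower points are dim probes named by symbol alone, with Mrps31 at -0.59 and Mrps18a at -0.38.

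Related gene lists were described by counts and medians beside the all-gene median of -0.014, and none of their genes passed the adjusted threshold in limma. Among 7 mitochondrial ribosomal proteins listed by older or unrelated names, of which Mrpl57 is also among the members, 3 had higher and 4 lower means in the P. gingivalis arrays, with a median of -0.028. Ptcd3, a small subunit protein with RNA-binding repeats, gave 4.45, 4.43, 4.34 and 4.41 in the P. gingivalis arrays and 4.61, 4.64, 4.55 and 4.50 in the control arrays. Its groups did not overlap, and the difference was -0.17 ± 0.060 (SE, n = 4 each; limma adjusted p = 0.3915). Chchd1, another small subunit protein, differed by -0.10.

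The 25 genes of mitoribosome assembly and rRNA modification split into 16 higher and 9 lower, with a median of 0.014. Noa1, a GTPase involved in assembly of the small subunit, had the largest difference in the list. It gave 7.67, 7.57, 7.59 and 7.64 in the P. gingivalis arrays and 7.60, 6.98, 7.08 and 7.23 in the control arrays, and control 1 lay within the P. gingivalis range. The difference was 0.39 ± 0.13 (SE, n = 4 each; limma adjusted p = 0.3598). Dhx30, an RNA helicase of mitochondrial RNA granules, differed by -0.11 and Mtg2, a GTPase of large subunit assembly, by -0.13, both narrowly without overlap. The share without overlap was 8% in this list, near the 7.07% of all genes.

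Of 16 mitochondrial translation factors 8 were higher and 8 lower, with a median of 0.005. Mtif2, the initiation factor that brings the first tRNA to the small subunit, gave 4.84, 4.83, 5.02 and 4.83 in the P. gingivalis arrays and 5.20, 5.01, 5.10 and 5.06 in the control arrays. P. gingivalis 3 alone reached the control range, and the difference was -0.21 ± 0.071 (SE, n = 4 each; limma adjusted p = 0.372). Mrrf, the ribosome recycling factor, differed by -0.16 ± 0.084. The 19 mitochondrial aminoacyl-tRNA synthetases split into 8 higher and 11 lower (median -0.024). Wars2, for tryptophan, had -1.75, -1.62, -1.49 and -1.74 in the P. gingivalis arrays and -1.45, -1.32, -1.41 and -1.37 in the control arrays. These groups did not overlap, and the difference was -0.26 ± 0.075 (SE, n = 4 each; limma adjusted p = 0.3378). Kars, for lysine, which also serves the cytosol, differed by -0.099.

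Among the 9 regulators of nuclear genes of mitochondria 8 had a lower mean in the P. gingivalis arrays, with a median of -0.11. At an unadjusted p under 0.05, 3 of the 9 were counted, all lower, against 5.83% of all genes in that direction, and 4 of the 9 did not overlap, all lower, against 3.82%. Gabpb1, the partner of the DNA-binding GABP subunit, gave 0.11, 0.21, 0.23 and 0.22 in the P. gingivalis arrays and 0.34, 0.49, 0.38 and 0.31 in the control arrays, a difference of -0.19 ± 0.064 (SE, n = 4 each; limma adjusted p = 0.378). Nrf1 gave 0.08, -0.01, 0.03 and 0.08 in the P. gingivalis arrays and 0.30, 0.28, 0.12 and 0.15 in the control arrays, a difference of -0.17 ± 0.065 (SE, n = 4 each; limma adjusted p = 0.4119). The third, Yy1, differed by -0.20 ± 0.078 and the fourth without overlap, the coactivator Pprc1, by -0.12. Averaged over the 9 centred genes, log2 signals were -0.090, -0.088, 0.022 and -0.024 in the P. gingivalis arrays and 0.10, 0.035, -0.006 and 0.052 in the control arrays, which overlapped through P. gingivalis 3 and control 3. The value table places P. gingivalis 1 and P. gingivalis 2, the lowest of these arrays, among its controls. It places control 3 and control 4 in its P. gingivalis group. This list was not compared with the value table's groups, so its direction rests on the scanner files' labels. Gabpa, the DNA-binding subunit of GABP, differed by -0.048 ± 0.066 (SE, n = 4 each), with overlapping groups. The coactivator Ppargc1a, known as PGC-1α, differed by -0.026 ± 0.12. Members with NRF1 letters in the promoter had a median difference of -0.048, against -0.017 for those without, members with ETS letters -0.027 against -0.010, and members with YY1 letters -0.012 against -0.018. The part of the regulators in these medians was not tested, and the medians were not computed with the value table's groups.

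The 10 genes of mitochondrial DNA transcription and maintenance split into 1 higher and 9 lower, with a median of -0.086. Polrmt, the RNA polymerase of mitochondria, differed by -0.14 ± 0.087 and Tfb2m, its initiation factor, by -0.097 ± 0.061 (SE, n = 4 each). Of 13 mRNAs encoded by mitochondrial DNA, the products that this ribosome translates, 11 were measured, and this list was chosen after seeing the data. Of these 10 had a higher mean in the P. gingivalis arrays, with a median of 0.10. The groups of 2, ND4 and ND5, did not overlap, against 3.25% of all genes in that direction, and 2, ND4 and COX2, had an unadjusted p under 0.05, against 4.87%. ND4, a complex I subunit, gave 8.44, 8.40, 8.54 and 8.41 in the P. gingivalis arrays and 8.38, 8.22, 8.23 and 8.17 in the control arrays, a difference of 0.20 ± 0.069 (SE, n = 4 each; limma adjusted p = 0.3839). COX2, a complex IV subunit, gave 9.27, 9.06, 9.37 and 9.09 in the P. gingivalis arrays and 9.15, 8.91, 8.93 and 8.93 in the control arrays, a difference of 0.22 ± 0.093 (SE, n = 4 each; limma adjusted p = 0.4419). Averaged over the 11 centred mRNAs, log2 signals were 0.12, -0.025, 0.11 and 0.013 in the P. gingivalis arrays and 0.038, -0.12, -0.033 and -0.10 in the control arrays, which overlapped. The value table places P. gingivalis 1, the highest of these arrays, among its controls, and control 4 in its P. gingivalis group. This list too was not compared with the value table's groups, and its direction rests on the scanner files' labels. The difference between these mRNAs and the ribosomal protein genes was not tested. The fast-fibre genes, with a median difference of 0.12, had higher summed levels on the same arrays, and their part in these values was not tested.

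Cytosolic ribosomal proteins, the counterpart outside the mitochondrion, split into 25 higher and 56 lower of 81, with a median of -0.038. The 81 nuclear-encoded subunits of oxidative phosphorylation split into 32 higher and 49 lower, with a median of -0.022.

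**Figure D5:**
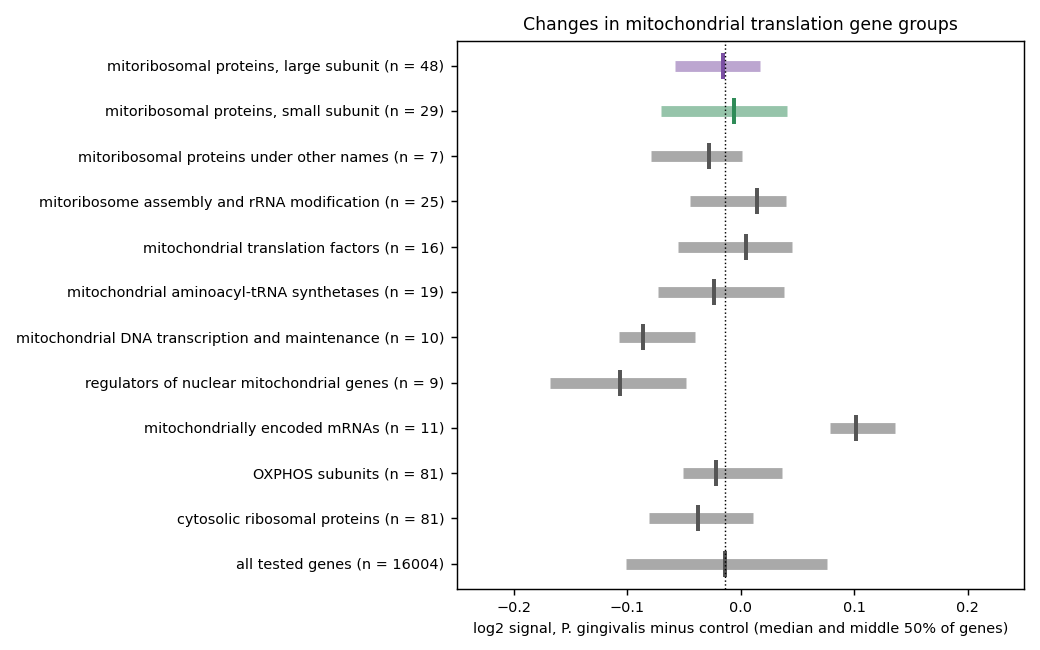
Median (tick) and middle 50% of genes (bar) of the difference in log2 signal, P. gingivalis minus control, for the members by subunit and for related gene lists. The dotted line is the median of all tested genes, -0.014, with both subunits close to it, regulators at -0.11 and mitochondrially encoded mRNAs at 0.10. Groups are those of the scanner files, and medians of the related lists were not computed with the value table's groups. Under those groups, array means of the regulators and of the mitochondrially encoded mRNAs did not keep these directions apart.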

How the data were processed

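The authors deposited Agilent Feature Extraction spot intensity values of 8 single-colour (Cy3) arrays, with a labelling input of 200 ng total RNA, per the labels' protocols. File headers give version 11.0.1.1 for the placement of the spot grid, and the submitters' processing notes name Feature Extraction 11.1. Processed intensity is background-subtracted within each array and not scaled between arrays, per the file headers. The authors' deposited value table holds log2 signals of 24764 probes, with scaling not given in the sources used here.

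All arrays came from 1 slide and 1 scan. On each array 56.3% to 59.3% of spots exceeded background clearly, none was saturated, and 0.108% to 0.218% were left out as outliers, per the files' other columns of flags. Arrays correlated at 0.9909 to 0.9949. The number of arrays limits the precision.

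Intensities were put on the log2 scale less the 75th percentile of the array's 59305 non-control spots, and spots of a probe were averaged. Probes well above background on at least 4 of 8 arrays (over 50% of spots) were tested, 31649 of 56605. For each gene the brightest tested probe was used. Groups were compared in limma 3.58.1 (R 4.3.3, lmFit and eBayes), with Benjamini-Hochberg adjustment over tested probes. The procedure was tested on simulated data. RefSeq names of GRCm38.p6 were matched by accession or symbol.

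The members, lists and promoter motifs were chosen with earlier results of these data known. Members with full values were the 8 of lowest p in each direction and 10 set by role, 23 in all. From each related list the 2 genes of lowest p were named, with others where a count of 5 or fewer needed it. Gabpa, Ppargc1a and Mrpl46 were named after their values were seen. Alternatives were other scalings, background correction, filters, variance model, a replicate block, each array left out, and the value table. Figures were drawn with matplotlib 3.10.9.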

Additional observations from a re-analysis of the deposited data

Results flagged for a closer look

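Among the 23 named members, 1 of 46 groups of 4 arrays held a value far from the rest. In Mrpl45 the P. gingivalis 1 array stood at 4.60 while the other 3 arrays of its group lay between 4.39 and 4.42, a gap of 0.836 of the group's range and above Dixon's 95% critical value for 4 samples. Over all 77 members 8 of 154 groups exceeded that limit, and chance alone gives about 1 group in 20.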

How the results depend on the processing

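No member passed the adjusted threshold in limma under any alternative run. The lowest adjusted p over the members was 0.0794, for Mrpl34, with normexp background correction. Over all probes 14 passed with normexp, 2 without a filter, 2 with an intensity trend and 1 with the value table's columns matched to arrays. At an unadjusted p under 0.05 the higher members numbered 2 with each array's median, 2 with quantile normalization, 2 with the matched value table, 3 with the trend and 0 without a filter, with the replicate block, on the 4 arrays of agreed group and with the value table's groups. The lower members numbered 5 with normexp, 2 with the trend, 3 with the mean of all probes and 0 on the 4 agreed arrays, with the value table's groups, with its own labels and with its matched columns. Members without overlap numbered 8 with normexp, 30 on the 4 agreed arrays (2 per group), 0 with the value table's own labels and 6 with the mean of all probes. With only 2 arrays per group, separation by order alone is common. The shares of all genes, without overlap or at an unadjusted p under 0.05, were not computed in any alternative setting. These counts, and those with 1 array left out, therefore give no result about the members. The members' median was 0.017 with array medians (all genes 0.018), -0.045 with normexp (all genes 0.021) and 0.024 with the value table's own labels. For large subunit genes it was 0.016, -0.050 and 0.017 in these settings, and -0.042 on the 4 agreed arrays. For small subunit genes it was 0.026 with array medians and 0.034 with the value table's own labels. The large less the small subunit median was -0.022 with normexp, -0.023 on the 4 agreed arrays, 0.005 with the value table's groups and 0.015 with the mean of all probes. Signs turned with normexp in Mrps15 (-0.008), Mrps21 (-0.014) and Mrpl45 (-0.042), with the matched value table in Mrps18a (0.016) and Mrps36 (0.021), and with the mean of all probes in Mrps15 (-0.076) and Mrps22 (-0.025). With the value table's groups, 11 of 23 named members turned, Mrpl36 (-0.057), Mrps18c (-0.015), Mrps17 (-0.045), Mrps15 (-0.018), Mrps22 (-0.054), Mrpl34 (0.071), Mrpl11 (0.007), Mrps25 (0.060), Mrpl55 (0.056), Mrpl12 (0.002) and Mrps12 (0.00035). With that table's own values and labels, 13 turned, Mrps22 (-0.002), Mrpl34 (0.14), Mrps18b (0.034), Mrpl21 (0.061), Mrpl11 (0.045), Mrps25 (0.096), Mrpl55 (0.091), Mrps5 (0.041), Mrpl10 (-0.026), Mrpl12 (0.041), Mrps12 (0.039), Mrps18a (0.078) and Mrps36 (0.041). The cause was not tested. Leaving out 1 array at a time gave 0 to 1 higher and 1 to 2 lower members at an unadjusted p under 0.05, 5 to 7 without overlap (3 arrays against 4), a large less small median of -0.019 to 0.005, and Mrpl45 at -0.025 to 0.054. The unadjusted call of Mrps11 was lost without P. gingivalis 1, 3 or 4, without control 2 and without control 4. Same-numbered arrays correlated at 0.0069 to 0.0629 in their deviations, which gave no sign that the numbers pair the samples. A pairing that bears on few genes could not be seen in this way. With the replicate block 0 members passed the adjusted threshold, with 0 higher and 1 lower at an unadjusted p under 0.05.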
